A study of Cyprinodon variegatus with 4 samples.

Results

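Tight and gap junction proteins were picked from the transcripts of whole sheepshead minnow larvae (Cyprinodon variegatus, an estuarine fish of toxicity testing) by the opening words of their annotation: claudin, occludin, tight junction protein, junctional adhesion molecule, gap junction, cingulin, cadherin with a hyphen, or epithelial cell adhesion molecule. The rule found 41 protein names on 128 assembled contigs, of 9609 names in all. They comprised 11 claudins, occludin, the scaffold ZO-1, junctional adhesion molecule C, cingulin-like protein 1, 11 connexins and 15 cadherins or cadherin-related proteins. No annotation began with epithelial cell adhesion molecule.

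The 4 libraries were 1 each of larvae with no treatment (control), with the surfactant Tween 80 at 0.001% (surfactant control), and with microfibres of the polyester PET, polyethylene terephthalate, at 10 mg/L or at 100 mg/L. Larvae entered the exposure at 72 h after fertilization and stayed in it for 10 days. The strain and the number of larvae per library are not used here, and the labels do not say per sample whether Tween 80 was present with the fibres. PET libraries were set against the surfactant control, and against the untreated control where stated. Each difference compares single libraries, so it has no replicate check and no p-value.

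Epithelia are closed by tight junctions, in which claudins form the strands that seal the space between cells or, for some claudins, open ion-selective pores through it. Occludin and junctional adhesion molecules lie in the same membranes, and ZO-1 links the strands to actin. Cadherins hold neighbouring cells together at the adherens junction below. Connexins assemble into gap junctions, channels that join the cytoplasm of adjacent cells. In fish larvae these proteins form the barrier of skin, gill and gut toward the surrounding water, and several claudins of gill and skin are known to change with salinity.

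Expression was given as FPKM, fragments scaled to contig length and library size, and was summed here over all contigs of a protein name. In RNA of whole larvae, fewer cells of a type and less RNA per cell cannot be told apart. The members took 0.0780% of all FPKM in control larvae, 0.0771% with surfactant alone, 0.0772% with 10 mg/L PET and 0.0779% with 100 mg/L. The FPKM of a library summed to between 1039707 and 1080208, and read depth is unknown. A mean of 1 FPKM or more was reached by 32 of the 41 names, which entered the comparisons. The other 9 were cadherin-12, cadherin-16, cadherin-17, the cadherin-related tumor suppressor, cingulin-like protein 1, claudin-10 and the connexins delta-4, gamma-2 and Cx32.7, with means between 0.28 and 0.82 FPKM.

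Cadherin-1 (E-cadherin, the adhesion protein of epithelia) was the most abundant member, at a mean of 182 FPKM, followed by the connexin Cx32.2 at 108, claudin-4 at 95.4, the claudin-like protein ZF-A89 at 82.4, occludin at 56.9 and claudin-8 at 42.1. These levels compare protein names only as far as the contig lengths used for FPKM were right.

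**Figure D1:**
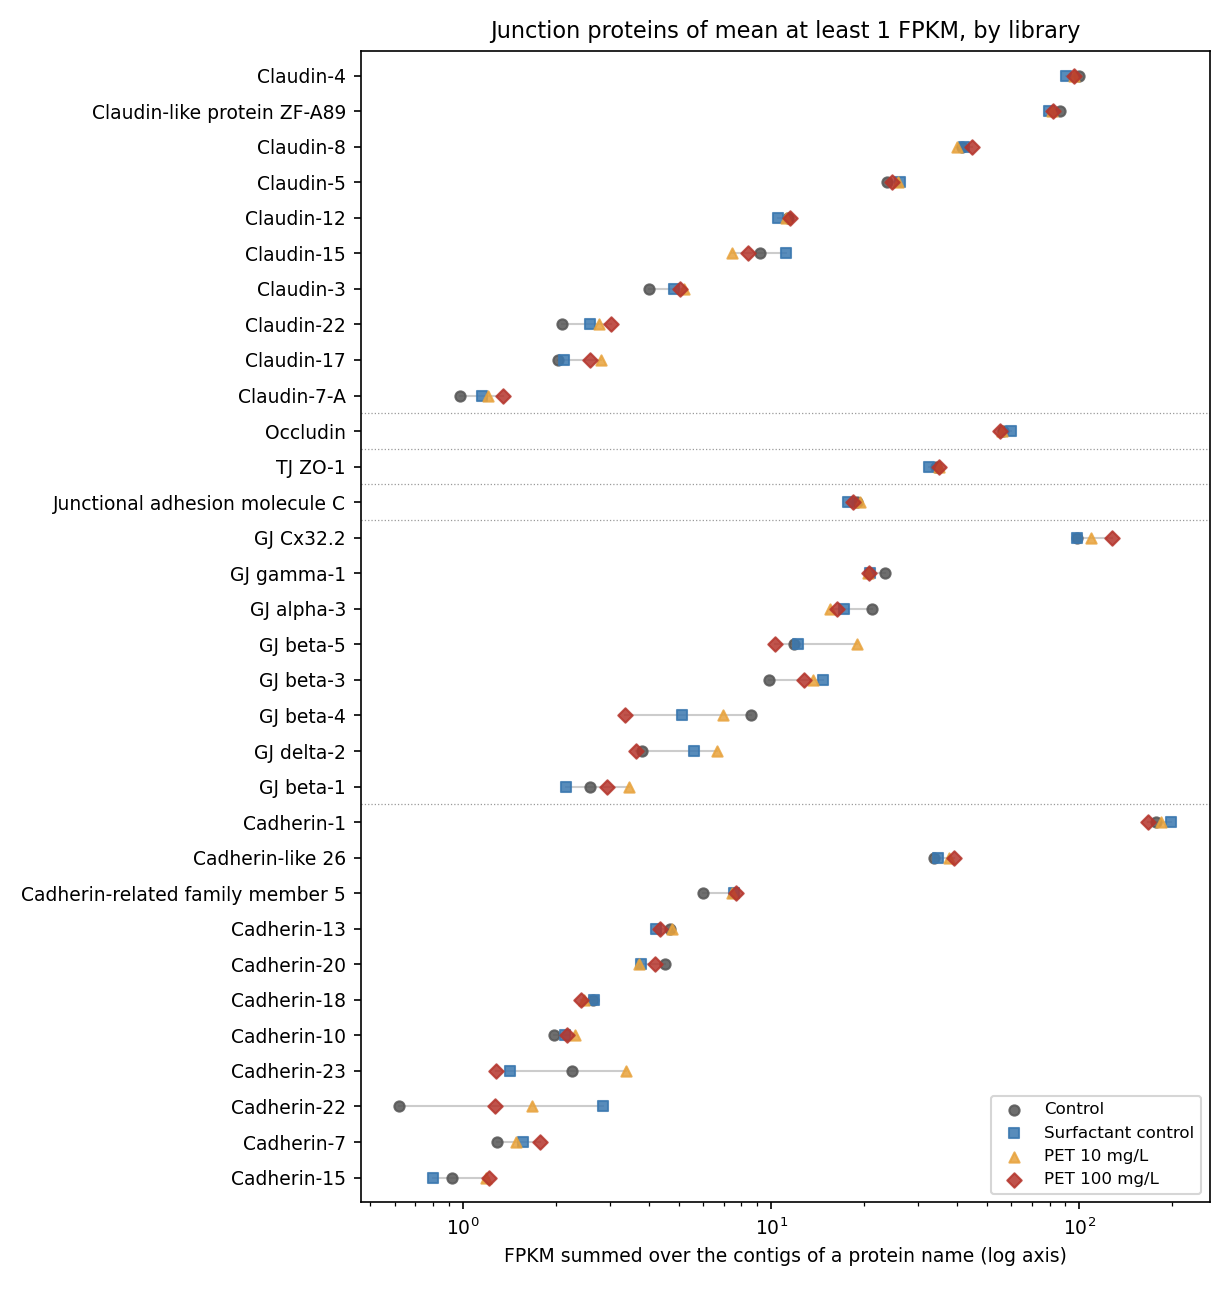
FPKM summed over the contigs of each protein name (x axis, log scale) for the 32 junction proteins of mean at least 1 FPKM, in rows grouped by family and ordered by mean. Each symbol is 1 library and the grey line spans the 4. The symbols of the abundant claudins, occludin, ZO-1 and junctional adhesion molecule C lie almost on each other, whereas those of connexins beta-4, beta-5 and delta-2 and of cadherins 22 and 23 are spread.

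The abundant tight junction proteins had nearly the same level in all 4 libraries. Claudin-4, a barrier-forming claudin, was at 99.5 FPKM in control larvae, 90.6 with surfactant alone, 95.8 with 10 mg/L PET and 95.9 with 100 mg/L. The claudin-like protein ZF-A89, named from zebrafish, was at 86.7, 79.5, 81.4 and 82.1 FPKM in the same order of libraries. Both were highest in the control and lowest in the surfactant control, by small steps. Claudin-8, which limits cation passage in mammalian kidney, was at 41.4, 42.2, 40.1 and 44.8 FPKM. Claudin-5, known as the claudin of the blood-brain barrier, was at 23.8, 26.1, 25.7 and 24.6 FPKM. Of endothelium markers, only FLT1 and VWF of the 8 listed were matched, summing to 0.38 FPKM in control larvae, 1.36 with surfactant alone, 1.09 with 10 mg/L and 0.96 with 100 mg/L.

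Occludin summed to 56.3 FPKM in control larvae, 60.02 with surfactant alone, 56.1 with 10 mg/L PET and 55.0 with 100 mg/L. ZO-1, spread over 20 contigs, summed to 34.2, 32.5, 34.9 and 35.0 FPKM, and junctional adhesion molecule C, a cell adhesion protein of the immunoglobulin superfamily, to 19.0, 17.7, 19.4 and 18.4. For the 8 tight junction proteins of mean at least 10 FPKM (claudins 4, 5, 8 and 12, ZF-A89, occludin, ZO-1 and junctional adhesion molecule C), the highest library was between 1.077 and 1.116 times the lowest. Thus 8 of 8 stayed under 1.2 times, as did 58.5% of all 2686 annotations of that level. Of the 5 connexins of that level 1 did (gamma-1, at 1.13), and the others reached between 1.30 and 1.85 times. This measure was chosen after the values were seen, and no test of a difference between the families was made.

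Less abundant claudins varied more. Claudin-15, which forms a cation pore in the intestine of mammals, was at 7.47 FPKM with 10 mg/L PET and 8.38 with 100 mg/L, against 11.2 in the surfactant control and 9.21 in the control. It was lower than in the surfactant control by log2 ratios of -0.55 and -0.39, both under 1.5-fold (all log2 ratios are of FPKM plus 0.5). Enterocyte markers, 9 of 12 measured, summed to 1189 FPKM with 10 mg/L and 1069.6 with 100 mg/L, against 1039 in the surfactant control and 969 in the control, with none of the 9 at 0 and VIL1, CDX1 and CDX2 not matched. FABP6 alone gave 654 FPKM with 10 mg/L and 536 with 100 mg/L, against 541 in the surfactant control and 519 in the control. The part of enterocytes in the claudin-15 values was not tested. Claudin-3, another sealing claudin, was lowest in the control, at 4.0 FPKM, beside 4.83 with surfactant alone, 5.21 with 10 mg/L and 5.07 with 100 mg/L. This order came from 1 of its assembly components, TR107759|c0, at 1.16, 2.45, 2.48 and 2.73 FPKM. The other, TR108417|c0, was at 2.84, 2.38, 2.73 and 2.34. Claudins 7-A, 17 and 22 had means between 1.17 and 2.61 FPKM and were each lowest in the control, with the highest library between 1.38 and 1.44 times the lowest. The control was also the lowest library in 1974 of all 6457 annotations of mean at least 1 FPKM.

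Together the claudins summed to 282 FPKM in control larvae, 272 with surfactant alone, 274 with 10 mg/L PET and 280 with 100 mg/L. Claudin-4 made up between 33.3% and 35.3% of this sum, ZF-A89 between 29.2% and 30.8%, and claudin-8 between 14.6% and 16.0%. The make-up of the claudins was thus almost the same in each library. Connexins summed to 180.4, 177, 196 and 199 FPKM in the same order. Cx32.2 alone made up 54.3% of connexin FPKM in control larvae, 55.3% with surfactant alone, 55.9% with 10 mg/L and 63.9% with 100 mg/L.

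**Figure D2:**
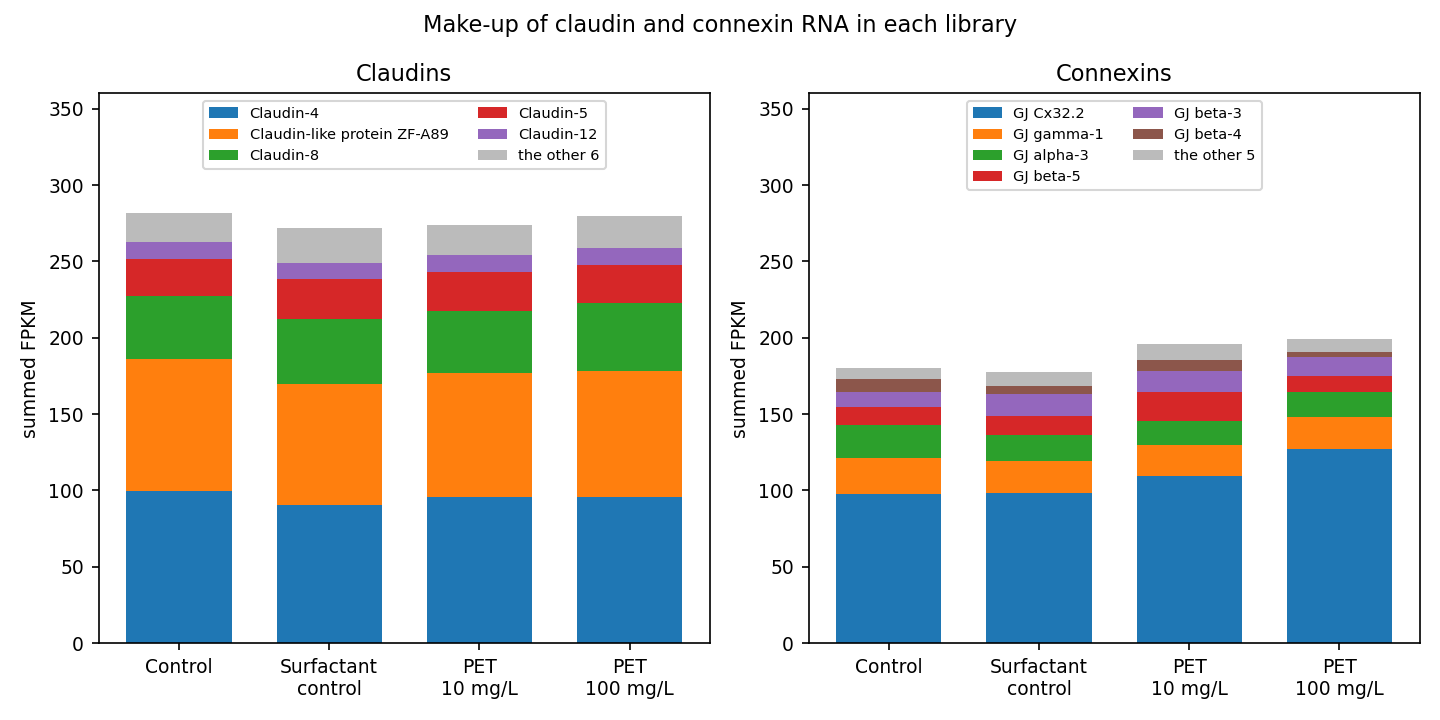
Stacked bars of summed FPKM (y axis) of the 5 most abundant of 11 claudins (left) and the 6 most abundant of 11 connexins (right) in each library (x axis), with the other members in grey. Claudin bars keep their height and layers, and the Cx32.2 layer of the connexins is tallest at 100 mg/L PET, at 127 FPKM beside 98.1 in the surfactant control.

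Cx32.2, a connexin described in fishes, was at 97.9 FPKM in control larvae, 98.1 with surfactant alone, 109 with 10 mg/L PET and 127 with 100 mg/L. Its log2 ratio at 100 mg/L over the surfactant control was 0.38, under 1.5-fold and just under the 95th percentile (also 0.38 when rounded) of the annotations of mean at least 10 FPKM. Its sum was highest at 100 mg/L, as in 40.8% of all annotations of that level, and so were both of its abundant contigs. TR224|c0_g1_i1 was at 72.0, 76.7, 78.01 and 95.6 FPKM, and TR68287|c0_g1_i1 at 22.7, 18.6, 28.9 and 29.1. The smaller contig was thus about equally high at both PET concentrations. Connexin beta-1, which joins hepatocytes in mammals, was at 3.45 FPKM with 10 mg/L and 2.92 with 100 mg/L, against 2.15 in the surfactant control and 2.59 in the control. Its most abundant contig, TR107802|c0_g1_i1, was not higher with PET, at 1.36, 1.32, 1.32 and 1.09 FPKM from control to 100 mg/L. In the same assembly component, TR107802|c0_g1_i2 was at 1.09, 0.66, 1.21 and 1.69 FPKM, and TR107802|c0_g1_i4 at 0.14, 0.17, 0.92 and 0.14. Hepatocyte markers, 6 of 12 measured, summed to 241 FPKM with 10 mg/L and 295 with 100 mg/L, against 269.7 in the surfactant control and 211 in the control, with PLG at 0 in 2 libraries. Most of that sum was FGG and SERPINA1. The median log2 ratio of the 5 past the filter was 0.36 at 10 mg/L and 0.45 at 100 mg/L over the surfactant control. The part of hepatocytes in the connexin values was not tested.

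Connexin gamma-1, found in heart and vessel muscle of mammals, was at 23.4 FPKM in the control and between 20.7 and 20.95 in the other 3 libraries. Connexin alpha-3, of lens fibres in mammals, was at 21.3 FPKM in control larvae, 17.2 with surfactant alone, 15.5 with 10 mg/L PET and 16.4 with 100 mg/L. The control library was thus the highest in both sums. The abundant alpha-3 contigs differed: TR117645|c1_g1_i1 was at 9.02, 9.27, 6.38 and 8.75 FPKM, and TR124736|c2_g1_i1 at 10.0, 7.17, 6.94 and 6.60. Contig TR124736|c0_g1_i1 gave 1.44 FPKM in the control and was listed at 0 elsewhere. TR14439|c0_g1_i1 gave 1.58 FPKM with 10 mg/L and was likewise at 0 elsewhere. Lens markers, 8 of 14 measured, summed to 2040 FPKM in the surfactant control, against 1683 in the control, and to 1995 with 10 mg/L and 2053 with 100 mg/L. Most of that sum was CRYBB1, at 1237 FPKM in the surfactant control, against 1007 in the control. The lens fibre protein filensin (BFSP1) was lower in the surfactant control, at 13.1 FPKM against 16.6 in the control, and was at 15.4 with 10 mg/L. CRYBA4 was also lower in the surfactant control, at 3.18 FPKM against 3.92. The other matched markers were higher there than in the control, among them phakinin (BFSP2), at 67.8 FPKM against 55.2, and LIM2, at 91.9 against 84.5. CRYAA and MIP, which define lens, were not matched, and the part of lens in the alpha-3 values was not tested.

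Connexins beta-3, beta-4 and beta-5, which in mammals couple keratinocytes of the epidermis, had different orders of the libraries. Beta-5, a single contig, was at 11.8 FPKM in control larvae, 12.2 with surfactant alone, 19.0 with 10 mg/L PET and 10.3 with 100 mg/L. Only the 10 mg/L library stood out. Its log2 ratio at 10 mg/L was 0.62 over the surfactant control and 0.66 over the control. It was the only member at 10 mg/L that differed by 1.5-fold or more from each of those controls in the same direction, 1 of 32 beside 4.85% of all 6457 annotations past the same filter (3.04% higher and 1.81% lower).

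Connexin beta-4 was highest in the control and lowest at 100 mg/L PET, at 8.59, 5.14, 6.99 and 3.34 FPKM from control to 100 mg/L. The surfactant control was lower than the control by a log2 ratio of -0.69, and PET 100 mg/L lower than the surfactant control by -0.55. The first of these rested on contig TR124884|c9_g6_i1, at 3.42 FPKM in the control, 0.72 at 100 mg/L and listed at 0 in the other 2. The most abundant beta-4 contig, TR124884|c9_g9_i2, was at 4.27, 4.71, 5.42 and 2.62 FPKM. Beta-3 was lowest in the control, at 9.80 FPKM, beside 14.7 with surfactant alone, 13.7 with 10 mg/L and 12.7 with 100 mg/L.

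All 7 contigs of these 3 connexins belonged to 1 assembly component, TR124884|c9. Contigs of 1 component share sequence, so fragments can be divided among them in different ways in each library, and the values of the 3 names are uncertain. The 7 contigs summed to 30.2 FPKM in control larvae, 32.1 with surfactant alone, 39.7 with 10 mg/L PET and 26.4 with 100 mg/L. The sum, which includes beta-5 itself (19.0 of 39.7 FPKM at 10 mg/L), kept the order seen in beta-5. Its log2 ratio over the surfactant control was 0.30 at 10 mg/L and -0.28 at 100 mg/L. For 100 mg/L over 10 mg/L it was -0.58. With an unannotated contig of the component added, the sums were 31.3, 36.25, 42.3 and 28.4 FPKM from control to 100 mg/L. Keratinocyte markers, 7 of 12 measured, summed to 7839 FPKM with 10 mg/L and 6712 with 100 mg/L, against 8332 in the surfactant control and 7535 in the control, with PPL at 0 in 2 libraries. Most of that sum was the keratin KRT13, at 7195 FPKM with 10 mg/L and 6191 with 100 mg/L. It was at 7676 FPKM in the surfactant control and 6917 in the control. The median log2 ratio of the 6 past the filter was -0.14 at 10 mg/L and -0.33 at 100 mg/L over the surfactant control. At 10 mg/L 1 of them, envoplakin, was higher by 1.5-fold and 0 were lower, beside 6.47% and 4.55% of all annotations. At 100 mg/L 0 were higher and 1, TP63, was lower (log2 ratio of -0.93), beside 7.48% and 4.09%. For 100 mg/L over 10 mg/L 0 were higher and 2, TP63 and envoplakin, were lower, beside 5.75% and 4.75%. The part of keratinocytes in the connexin values was not tested.

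Occludin also differed between contigs of 1 assembly component, more than in its sum. Contigs TR107370|c0_g1_i1 and TR107370|c0_g1_i2 had the surfactant and 100 mg/L libraries exchanged as highest and lowest: the first was at 16.6, 12.0, 13.4 and 21.3 FPKM from control to 100 mg/L PET, the second at 16.9, 24.2, 16.5 and 11.7. At 100 mg/L the log2 ratio over the surfactant control was 0.81 for the first and -1.01 for the second. Their sum was at 33.5, 36.2, 29.9 and 33.04 FPKM. The remaining occludin contig, TR107280|c0_g2_i1, was at 22.8, 23.9, 26.2 and 22.0 FPKM. Whether the pair are splice forms, alleles or divided fragments was not tested.

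**Figure D3:**
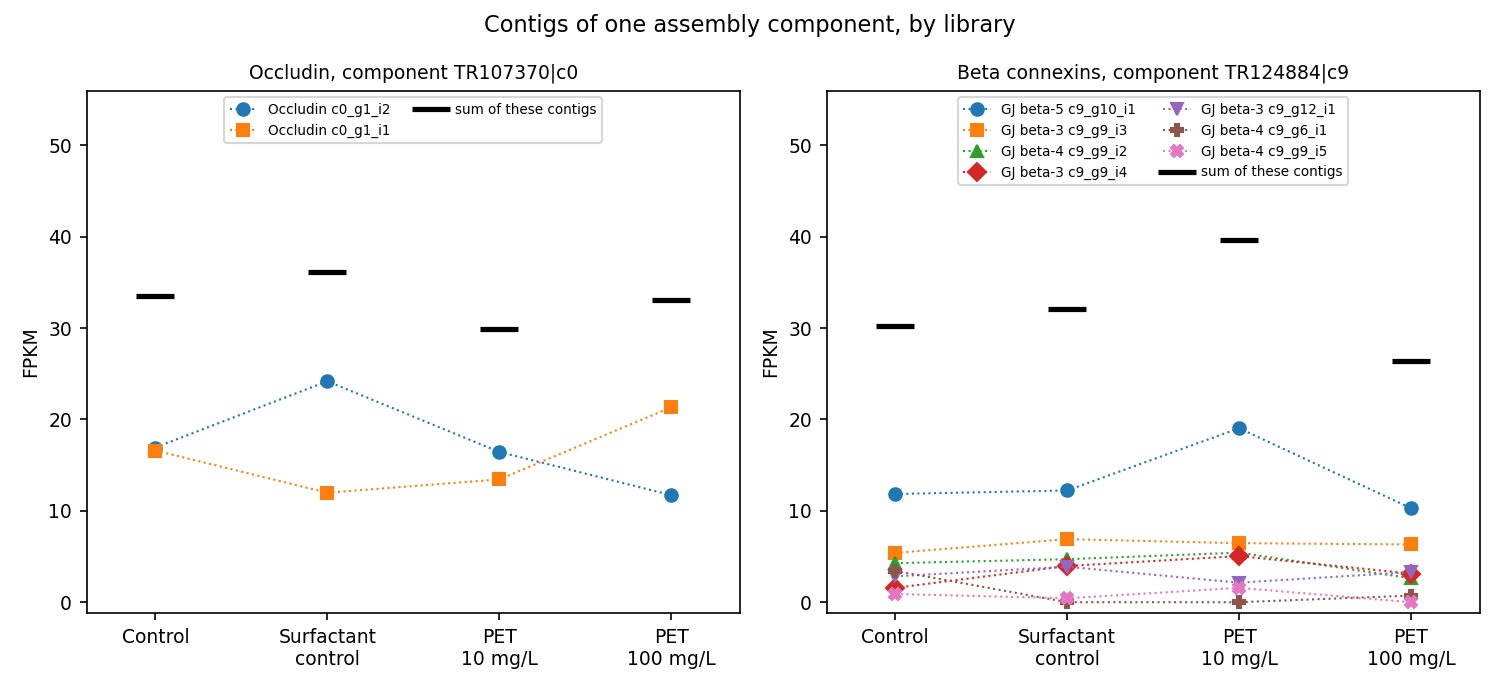
FPKM (y axis) of single contigs, as coloured symbols joined by dotted lines, and of their sum, as black bars, in the 4 libraries (x axis), for 2 occludin contigs (left) and for 7 beta connexin contigs (right) of 1 assembly component each. The occludin contigs cross while their sum stays between 29.9 and 36.2, and the beta connexin sum is highest at 10 mg/L PET, at 39.7.

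Connexin delta-2, the connexin of electrical synapses, was at 3.81 FPKM in control larvae, 5.63 with surfactant alone, 6.66 with 10 mg/L PET and 3.64 with 100 mg/L. The 2 middle values were higher than the others through contig TR28742|c0_g1_i1, at 0.70, 2.72, 3.48 and 0 FPKM. Its other component, TR107023|c0, was steadier, at 3.11, 2.91, 3.18 and 3.64. Neuron markers, 9 of 10 measured and none at 0, summed to 113 FPKM with 10 mg/L and 117 with 100 mg/L, against 94.9 in the surfactant control and 107 in the control, the order of component TR107023|c0 but not of the summed delta-2. Their part in the delta-2 values was not tested. Of the low connexins, gamma-2 had 1.32 FPKM with 100 mg/L PET and a listed 0 elsewhere, and Cx32.7 was listed at 0 in both PET libraries, against 0.62 in the surfactant control and 0.49 in the control.

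Cadherin-1 was at 177 FPKM in control larvae, 198 with surfactant alone, 184 with 10 mg/L PET and 166 with 100 mg/L. Its log2 ratio over the surfactant control was -0.11 at 10 mg/L. At 100 mg/L the ratio was -0.25, just below the 5th percentile of annotations of mean at least 10 FPKM (-0.24). Against the untreated control the ratio was 0.06 at 10 mg/L and -0.09 at 100 mg/L. Another contig of its assembly component was annotated as blastomere cadherin and so fell outside the rule. It was at 268 FPKM in control larvae, 288 with surfactant alone, 238 with 10 mg/L and 243 with 100 mg/L. The component as a whole summed to 446, 486, 422 and 409 FPKM, again highest in the surfactant control. The summed keratinocyte markers given above, mostly KRT13, were also highest there and lowest at 100 mg/L, and their part in the cadherin-1 values was not tested.

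Cadherin-like protein 26 was at 33.7 FPKM in control larvae, 34.7 with surfactant alone, 37.6 with 10 mg/L PET and 39.2 with 100 mg/L, a step of 0.17 on the log2 scale from the surfactant control to 100 mg/L. Cadherin-related family member 5, which links microvilli of the intestinal brush border in mammals, was lower in the control, at 6.01 FPKM, than in the other libraries, at 7.57, 7.47 and 7.68. It shares assembly component TR124651|c0 with the cadherin-related tumor suppressor, named from Drosophila fat, which was below the filter at 0.92 FPKM with 10 mg/L and 1.46 with 100 mg/L, against 0.23 in the surfactant control and 0.41 in the control. Cadherin-13, a cadherin anchored by a lipid rather than a transmembrane segment, was at 4.70, 4.22, 4.75 and 4.36 FPKM. The neural cadherins 7, 10, 18 and 20 and the muscle cadherin-15 had means between 1.03 and 4.05 FPKM, with the highest library between 1.10 and 1.51 times the lowest.

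Larger ratios among cadherins were those of the scarce cadherin-22 and cadherin-23. Cadherin-22, a cadherin of brain in rodents, was at 0.62 FPKM in control larvae, 2.84 with surfactant alone, 1.67 with 10 mg/L PET and 1.27 with 100 mg/L. Its sum was highest in the surfactant library, with a log2 ratio of 1.58 over the control, and both PET libraries lay between. Its contigs differed: TR119684|c0_g1_i6 was at 0.62, 1.82, 1.67 and 0.26 FPKM, and TR119684|c0_g1_i7 at 0, 1.02, 0 and 1.01. For the first, the log2 ratio at 10 mg/L over the surfactant control was -0.10. At 100 mg/L that contig lay below the untreated control, by -0.56. Cadherin-23, part of the tip links of hair cells, was at 2.25, 1.42, 3.38 and 1.28 FPKM. Its ratio of 1.01 at 10 mg/L over the surfactant control rested on contig TR119816|c0_g2_i1, at 2.12 FPKM there, 0.84 in the control and 0 in the other 2. Of hair cell markers 7 of 8 were measured. They summed to 14.4 FPKM with 10 mg/L and 15.3 with 100 mg/L, against 15.5 in the surfactant control and 13.8 in the control. POU4F3 was listed at 0 at 10 mg/L. Single markers moved in different directions, with TMC2 at 1.93, 0.26, 3.01 and 1.12 FPKM from control to 100 mg/L and OTOF at 1.68, 5.41, 4.44 and 2.68. The part of hair cells in the cadherin-23 values was not tested.

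Of the 32 members, between 3.12% and 12.5% were at least 1.5-fold apart for each of 4 pairs of libraries. Of all annotations, between 10.0% and 11.6% were. PET over the untreated control alone was not among these pairs, and no share is given for it. Besides cadherin-22 and connexin beta-5, connexin delta-2 was past 1.5-fold there at 10 mg/L (log2 ratio of 0.73). At 100 mg/L cadherin-22, cadherin-23 (-0.63) and connexin beta-4 (-1.24) were. Without a share of all annotations beside them, these calls say nothing about the members as a group. Those of delta-2 and cadherin-23 rested largely on the single contigs named above. Over the control, the surfactant control was higher in 1 member (cadherin-22) and lower in 1 (connexin beta-4), 6.25% of 32. Of all annotations 10.0% were past 1.5-fold, 5.30% higher and 4.71% lower. Over the surfactant control, PET 10 mg/L was higher in 2 (cadherin-23 and connexin beta-5) and lower in 1 (cadherin-22), 9.38% beside 11.0% of all annotations (6.47% higher and 4.55% lower). PET 100 mg/L was lower than the surfactant control in 1 (cadherin-22) and higher in 0, 3.12% beside 11.6% of all annotations (7.48% higher and 4.09% lower). At 100 mg/L 0 members were 1.5-fold higher than each control library or lower than each, beside 5.22% of annotations (3.65% higher and 1.56% lower). Cadherin-22 was past 1.5-fold from each at both concentrations but in opposite directions: it was below the surfactant control (log2 ratios of -0.62 at 10 mg/L and -0.92 at 100 mg/L) but above the untreated control (0.95 at the lower and 0.66 at the higher concentration). These ratios are of its sum. At 100 mg/L its most abundant contig was below the untreated control (-0.56). Of the 15 members of mean at least 10 FPKM, past 1.5-fold were 0 for the surfactant control over the control (1.30% of annotations of that level), 1 for PET 10 mg/L over the surfactant control (1.97%), 0 for PET 100 mg/L over the surfactant control (2.08%) and 1 for PET 100 over PET 10 mg/L (1.75%). The 1 member was connexin beta-5 in both cases.

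Between the concentrations, 4 members were lower at 100 mg/L than at 10 mg/L and 0 higher, 12.5% of 32. Of all annotations 10.5% were past 1.5-fold here, 5.75% higher and 4.75% lower. The 4 members were cadherin-23 (log2 ratio -1.12), connexin beta-4 (-0.96), beta-5 (-0.86) and delta-2 (-0.79). Beta-4 and beta-5 share an assembly component, so these are not 4 separate observations. Cadherin-23 and delta-2 each rested on 1 contig, of different components.

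**Figure D4:**
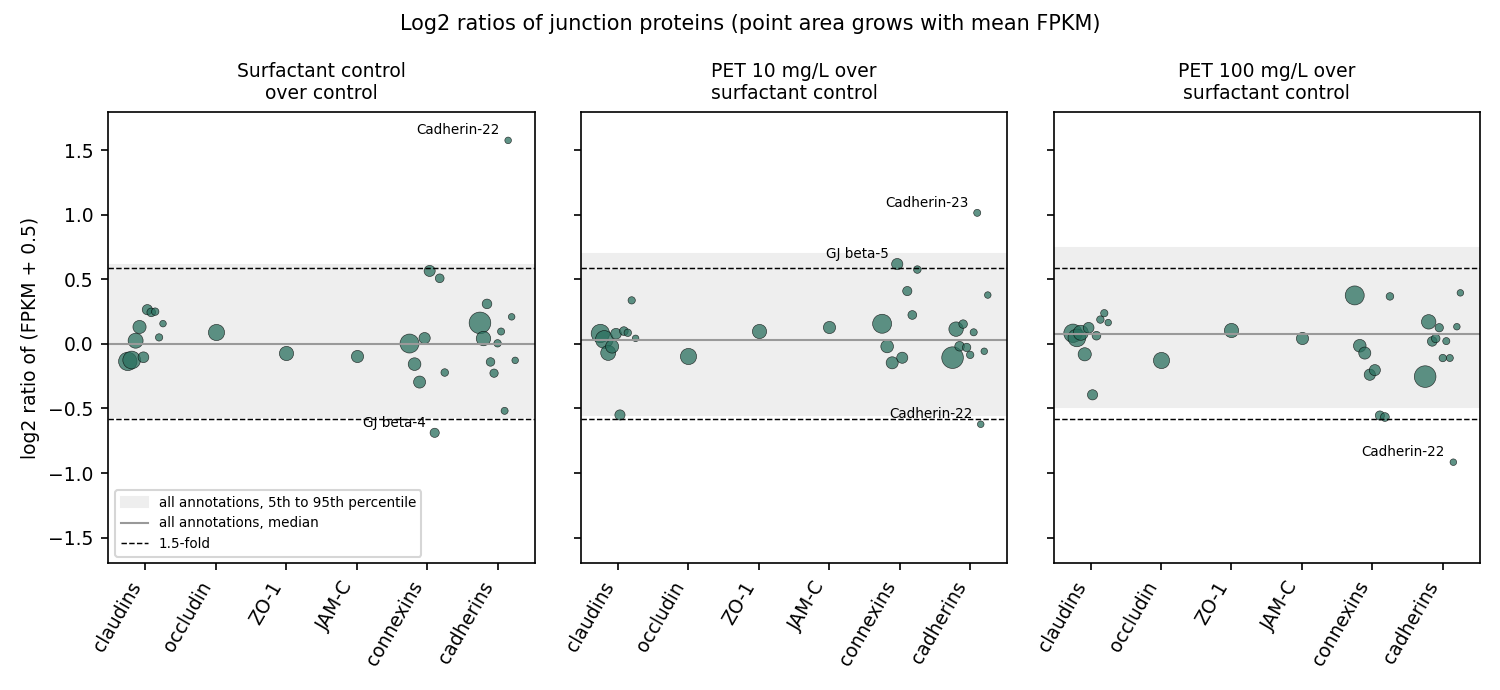
Log2 ratios of FPKM plus 0.5 (y axis) of the 32 junction proteins, by family (x axis), for 3 comparisons. Each point is a protein name, the grey band spans the 5th to 95th percentile of 6457 annotations, the grey line is their median, and dashed lines mark 1.5-fold. Claudins, occludin, ZO-1 and junctional adhesion molecule C all lie within the dashed lines, and the points outside are cadherins 22 and 23 and connexins beta-4 and beta-5.

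Medians of the claudins, connexins and cadherins lay between -0.15 and 0.26 on the log2 scale. For PET 100 mg/L over the surfactant control the median log2 ratio was 0.08 in 10 claudins, -0.14 in 8 connexins and 0.02 in 11 cadherins, against 0.08 over all annotations. At 10 mg/L the medians were 0.06, 0.19 and -0.02, against 0.03. For the surfactant control over the control they were 0.09, -0.08 and 0.04, against 0.00. For PET 100 over PET 10 mg/L they were 0.03, -0.15 and -0.02, against 0.06. Over the untreated control they were 0.04, 0.26 and 0.16 at 10 mg/L, against 0.03, and 0.08, -0.11 and 0.12 at 100 mg/L, against 0.08. Over the surfactant control, the connexins at 100 mg/L differed by measure. Their median was negative while their summed FPKM was higher, by 0.17 on the log2 scale, with Cx32.2 at 127 of 199 FPKM. In 9 of the 32 members FPKM increased stepwise from the surfactant control over 10 to 100 mg/L, beside 26.3% of all annotations, and in 6 it decreased stepwise, beside 10.6%.

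Partner proteins of the same junctions were read from lists of gene symbols. Of 38 listed tight junction partners 21 were matched and 15 passed the filter. The tricellular junction protein LSR was at 41.0 FPKM in control larvae, 43.5 with surfactant alone, 45.2 with 10 mg/L PET and 44.2 with 100 mg/L, and the scaffold MAGI1 at 36.5, 34.4, 36.6 and 34.4. CXADR, an adhesion molecule of the tight junction and the most abundant of the list, was at 38.3, 45.4, 44.4 and 55.4 FPKM. It was highest at 100 mg/L, as were 40.8% of all annotations of mean at least 10 FPKM. Over the surfactant control, 1 of the 15 counted as higher in each PET library and 1 as lower, so 2 of 15, near the 11.0% of all annotations at 10 mg/L and 11.6% at 100 mg/L given above. The higher one was symplekin, an RNA processing protein also found at junctions, at 3.98 FPKM with 10 mg/L and 1.33 with 100 mg/L, against a value listed at 0 in the surfactant control and 1.03 in the control. The lower one was afadin, which ties nectins to actin, at 7.18 FPKM with 10 mg/L and 5.24 with 100 mg/L, against 15.2 in the surfactant control and 7.59 in the control, so that the surfactant library stood apart from the other 3.

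Among 8 adherens junction partners of 19 listed, beta-catenin (CTNNB1), the cadherin-binding protein, was at 143 FPKM in control larvae, 136 with surfactant alone, 141 with 10 mg/L PET and 143 with 100 mg/L. Plakoglobin (JUP), its relative in desmosomes, was at 139, 141, 122 and 123 FPKM. Over the surfactant control, PLEKHA7 was lower by more than 1.5-fold in both PET libraries, at 3.70 FPKM with 10 mg/L and 3.56 with 100 mg/L, against 8.26 in the surfactant control and 3.36 in the control. Of its 8.26 FPKM there, 2.66 came from contig TR95614|c0_g1_i1, listed at 0 in the other 3 libraries, and its most abundant contig, TR68637|c0_g1_i1, was at 2.54, 3.45, 2.90 and 2.66 FPKM from control to 100 mg/L. AJUBA was higher in both, at 3.04 and 4.18 FPKM, against 1.58 in the surfactant control and 2.31 in the control. These were 2 of 8 at each concentration, beside 11.0% of all annotations at 10 mg/L and 11.6% at 100 mg/L. Of 5 desmosomal proteins past the filter, envoplakin alone exceeded 1.5-fold at 10 mg/L, beside the same 11.0% of annotations. It was at 8.36 FPKM there, against 5.20 in the surfactant control, 5.49 in the control and 5.26 with 100 mg/L. Desmoglein-3 was at 102.8, 92.6, 75.5 and 96.5 FPKM from control to 100 mg/L. Plakophilin-3, like envoplakin also in the keratinocyte list, was at 92.4 FPKM with 10 mg/L and 85.7 with 100 mg/L. It was at 107 FPKM in the surfactant control and 104 in the control. Pannexin-1, a channel protein related to the gap junction proteins of invertebrates, was at 1.60, 3.4, 1.76 and 3.67 FPKM from control to 100 mg/L; its higher values came from 1 contig listed at 0 in the control and at 10 mg/L.

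Median log2 ratios of the partner lists at 100 mg/L over the surfactant control were 0.02 for the tight junction, -0.03 for the adherens junction and 0.06 for the desmosome, against 0.08 over all annotations. At 10 mg/L they were 0.06, -0.03 and 0.05, against 0.03.

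At the level of single contigs 71 of the 128 passed the filter. Over the surfactant control, 10 of them were at least 1.5-fold apart at 10 mg/L PET, 14.1% beside 26.7% of all contigs, and 13 at 100 mg/L, 18.3% beside 28.3%. Between the libraries without fibres there were 11, 15.5% beside 24.3%. The shares of all contigs include contigs without annotation and were not matched for level, so they are not a like-for-like background. Of the 128 contigs, 33 were listed at 0 in at least 1 library and 6 in all 4.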

How the data were processed

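RNA of whole larvae was sequenced as 4 libraries, 1 per group. The authors deposited FPKM values for 257521 contigs, per the file headers, 24404 of them annotated. Tools given in the submitters' processing notes are RSEM, Bowtie and, with its version, bcl2fastq 2.20.0.422; assembly and annotation are not given in the sources used here. Contig names of the deposited values are not gene names, so their 0 matches to the reference genes of the C_variegatus-1.0 assembly are uninformative. Of 42 gene symbols of the members, 17 were among those reference genes. Protein names come from the deposited table, and no sequence is shown.

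FPKM was summed per protein name. Log2 ratios used a pseudocount of 0.5, which understates ratios of low values. Names of mean at least 1 FPKM were compared at 1.5-fold, 6457 in all, and the share of all names past it is the background. Depth is unknown, so no interval is given, and a value listed at 0 can be a failed estimate. Partner and marker lists were matched by symbol, and 6 matches to other proteins were left out. Members named were the 4 most abundant per family and up to 4 with the highest and lowest ratios past 1.5-fold; other members, contigs and the stepwise order were chosen after their values were seen. The members and lists were chosen with earlier results of these data known. Python 3.11.15, pandas 2.3.3 and NumPy 2.4.6 were used, and the calls were tested on simulated data.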

Additional observations from a re-analysis of the deposited data

How the results depend on the processing

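No paired analysis was possible because each group held 1 library, and none could be left out. Counts of members past 1.5-fold are given for the surfactant control over the control, PET 10 mg/L over the surfactant control, PET 100 mg/L over the surfactant control, PET 100 over PET 10 mg/L, and then for PET 10 mg/L and PET 100 mg/L from both libraries without fibres in the same direction. As reported they were 2, 3, 1, 4, 1 and 0 (of all annotations, 10.0, 11.0, 11.6, 10.5, 4.85 and 5.22%). With no filter on low values they were 5, 7, 6, 7, 3 and 4 of 41 (19.3, 21.2, 21.8, 21.0, 10.2 and 10.8%), and with a mean of at least 5 FPKM 1, 1, 0, 2, 1 and 0 of 18 (2.72, 3.37, 3.62, 3.10, 1.1 and 1.56%). A 2-fold threshold gave 1, 1, 0, 1, 0 and 0 (4.55, 4.99, 4.91, 4.79, 2.12 and 1.92%). Taking only the contig of highest mean gave 2, 1, 3, 4, 1 and 2 of 29 (9.63, 10.2, 11.5, 9.76, 4.46 and 5.22%). A pseudocount of 0.1 gave 3, 4, 3, 4, 1 and 1 (12.2, 13.1, 13.7, 12.5, 6.18 and 6.52%), and 1 gave 2, 2, 1, 4, 1 and 0 (8.21, 8.84, 9.31, 8.70, 3.90 and 3.93%). Median-of-ratios scaling gave 2, 3, 3, 4, 1 and 1 (10.1, 10.8, 10.9, 10.4, 4.82 and 4.74%). Summing per Swiss-Prot entry gave 5, 5, 4, 6, 3 and 2 of 46 (11.4, 12.0, 12.9, 11.6, 5.39 and 5.90%), and per assembly component 4, 6, 4, 4, 3 and 2 of 51 (11.9, 13.0, 14.0, 12.5, 5.91 and 6.67%); both were chosen after the data were seen. The cause of the moves was not tested, except that fewer or more names enter with another filter or unit. Connexin beta-4 in the surfactant control over the control reversed to 0.13 at its most abundant contig. Of 128 ratios of single members under that setting, it was the only one past 1.5-fold to change sign. Ratios of PET over the untreated control were not among the 128. There, cadherin-22 at 100 mg/L went from 0.66 to -0.56. Smaller ratios changed sign too. Connexin beta-1 at 100 mg/L over the surfactant control, for example, went from 0.37 to -0.19. Without replicates and read counts, the error of each ratio is unknown, and a value listed at 0 in 1 library can set the ratio of a low member.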
